A study of Drosophila melanogaster with 3 samples.

Results

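The retinal determination genes are a small network of transcription factors and cofactors that commit cells of the Drosophila eye-antennal disc to an eye fate. The 10 genes described here (toy, ey, so, eya, dac, Optix, tsh, hth, dan and danr) were chosen by name, and all 10 were found among the 13968 protein-coding genes of the annotation. Chromatin immunoprecipitation followed by sequencing had been used to map Pipsqueak in whole wandering third-instar larvae, males and females pooled, of a psq-GFP transgenic line that stably expresses Pipsqueak with eGFP at its C terminus. All 3 samples were biological replicates of this single group, so no genotypes, treatments or ages were compared. The authors deposited ranked entries, not read counts, and the depth of each sample is unknown. A gene counted as bound here when a summit of the authors' reproducible peak list, the optimal list, fell between 1 kb before its start and 1 kb past its end. The optimal list held 9459 entries, of which 20 had their summit at a retinal determination gene.

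Pipsqueak is a BTB-domain protein whose DNA-binding Psq motifs recognise GAGA-rich sequence, and it has been linked to Polycomb group silencing. In the eye disc the Pax6 proteins Twin of eyeless and Eyeless act at the top of the network and activate sine oculis and eyes absent. Sine oculis protein binds DNA, Eyes absent is its coactivator, and Dachshund acts further down, with feedback among them all. Teashirt and Homothorax keep progenitor cells undifferentiated ahead of the morphogenetic furrow. Distal antenna and Distal antenna-related are nuclear proteins of the antennal and eye primordia that themselves carry Psq-type motifs. Larvae were assayed whole, so no summit can be assigned to the eye-antennal disc, and weak binding in many cells cannot be told apart from strong binding in a few.

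The sequence under a summit differed much between these genes, as the following windows show. Each window spans 50 bp to each side of a summit, on the plus strand of dm6, read from the RefSeq release 6 genome. Capitals mark GAGAG on either strand (CTCTC as printed), the core of the sequence that Pipsqueak binds. The first pair lies just upstream of the tsh start site (chr2L:21828446-21828546 and chr2L:21828239-21828339), the third upstream of dac (chr2L:16486492-16486592), the next pair in hth (chr3R:10614502-10614602 at a start site and chr3R:10579689-10579789 at its strongest summit) and the sixth upstream of dan (chr3R:25184082-25184182, its strongest summit). The last lies at an internal start site of eya (chr2L:6536233-6536333), where the pooled list had an entry too weak for the optimal list. These are a selection of the strongest or the most start-proximal summits of tsh, dac, hth and dan, and eya, which carried the motif without a summit. Not printed are the windows of so, which had the strongest summit of the set and no GAGAG. The most start-proximal dan summit, with GAGAG, is not printed either. Also left out are the strongest pooled entries of ey, toy and danr, genes without a summit, whose windows held no GAGAG. For Optix, which had no summit either, no window was read. The share of windows with GAGAG cannot be read from this selection: it was 6 of the 20 summits (30%).
tsh, nearest the start site: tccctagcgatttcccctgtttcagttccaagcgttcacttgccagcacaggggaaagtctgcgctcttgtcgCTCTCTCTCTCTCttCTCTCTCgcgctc
tsh, strongest: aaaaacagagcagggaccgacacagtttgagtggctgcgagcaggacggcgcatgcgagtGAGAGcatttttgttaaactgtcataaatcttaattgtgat
dac, strongest: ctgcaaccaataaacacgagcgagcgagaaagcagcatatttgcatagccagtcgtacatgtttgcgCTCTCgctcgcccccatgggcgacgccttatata
hth, nearest a start site: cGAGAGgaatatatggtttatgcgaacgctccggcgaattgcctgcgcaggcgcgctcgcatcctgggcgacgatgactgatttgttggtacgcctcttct
hth, strongest: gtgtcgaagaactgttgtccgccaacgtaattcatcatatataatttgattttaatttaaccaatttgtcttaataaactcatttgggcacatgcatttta
dan, strongest: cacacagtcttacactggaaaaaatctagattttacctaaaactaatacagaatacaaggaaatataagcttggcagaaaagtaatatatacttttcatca
eya, entry below the optimal list: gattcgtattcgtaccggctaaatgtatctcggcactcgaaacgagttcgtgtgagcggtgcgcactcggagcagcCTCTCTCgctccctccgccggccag

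Pipsqueak was found at 5 of the 10 genes, namely so, dac, tsh, hth and dan, and not at ey, toy, eya, Optix or danr. Of all protein-coding genes, 37.4% were bound by the same rule. Genes of this length are bound more often than the average gene: among protein-coding genes within 20% of their spans, between 57.0% and 70.9% were bound for every member except danr, a short gene whose comparable genes were bound in 31.8% of cases. The strongest 9459 entries of each replicate list (its top list) placed summits at 6, 5 and 5 of the 10 genes in replicates 1, 2 and 3, the extra gene in replicate 1 being ey. The same lists had summits at 39.6%, 35.2% and 36.8% of all protein-coding genes. In total they placed 24, 22 and 20 summits there, a mean of 22.0 ± 2.00 (SD, n = 3). With the span alone, 2 genes (so and hth) had a summit, against 17% of all protein-coding genes. With 5 kb added, 7 had a summit, against 58.2%, and with 20 kb added 9, against 83.5%. Among the stronger 50% of optimal entries the 5 genes still had a summit, against 23.3% of all. In the pooled list, entries passing a q-value of 0.01 lay at 8 of the 10, against 47%. By start sites, the same 5 genes had a summit within 1 kb of their own, as did 31.3% of all protein-coding genes.

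**Figure D1:**
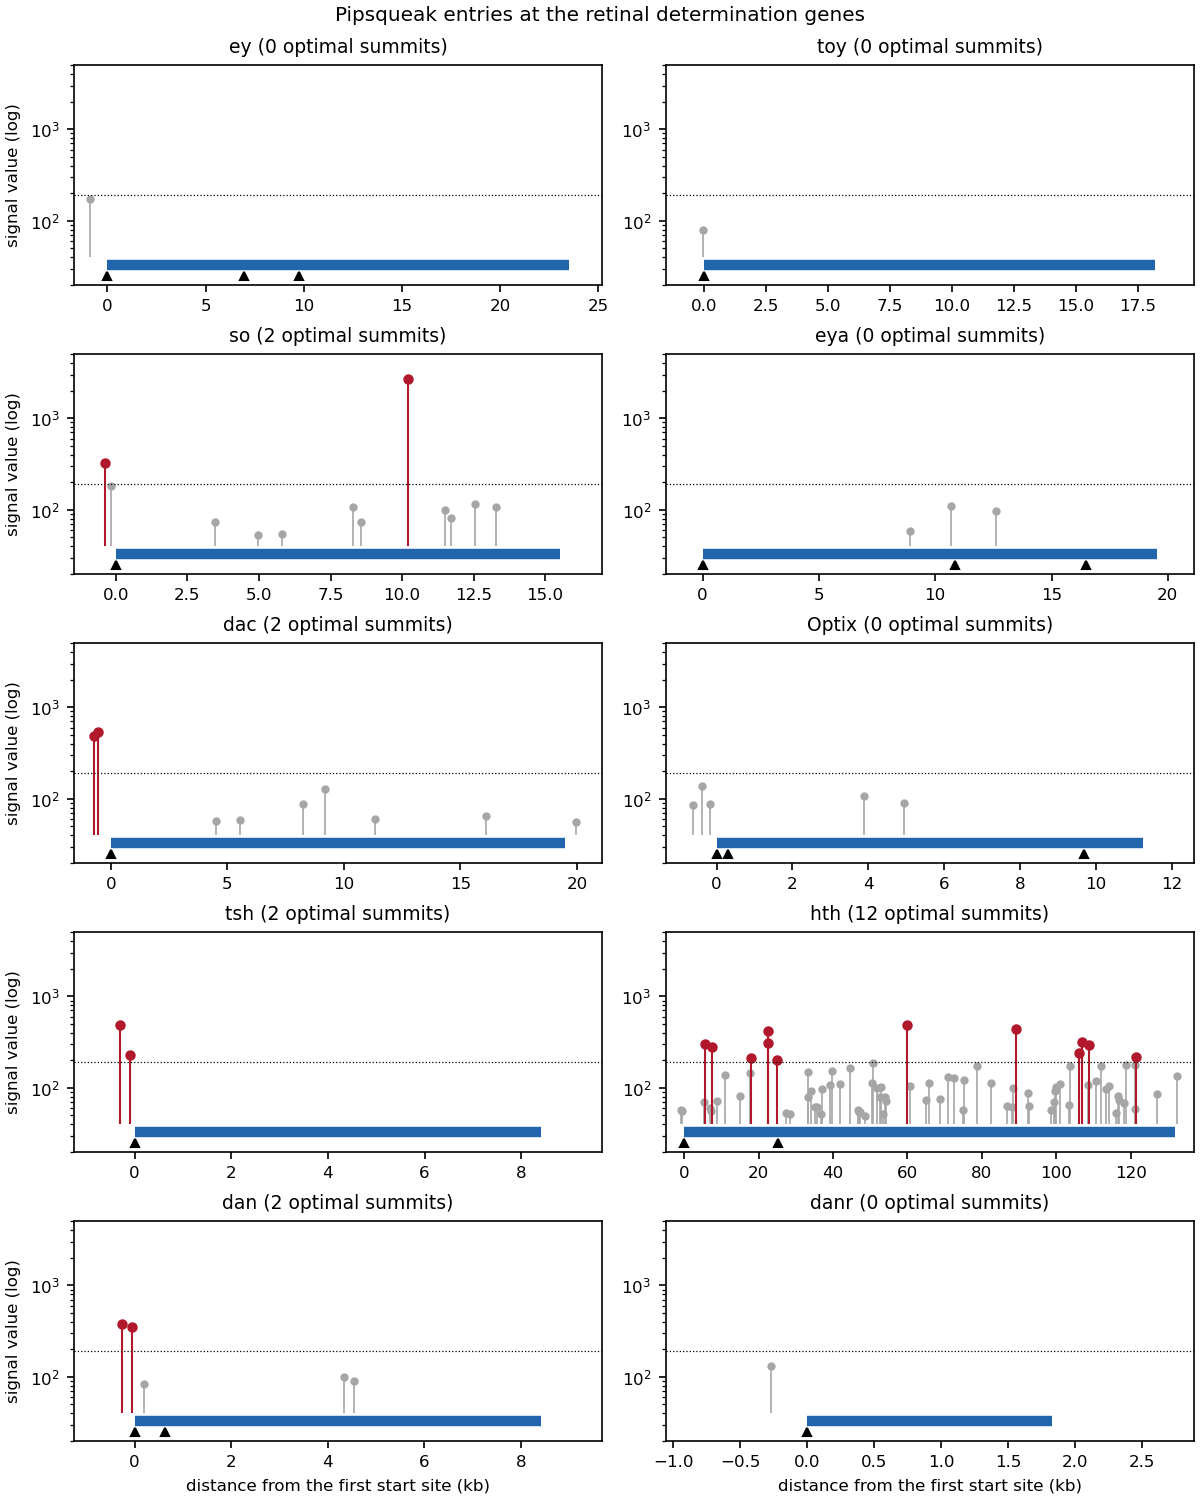
Signal value (log axis, the authors' scale) of every entry of the pooled list at each of the 10 genes, against distance in kb from the gene's first start site in its direction of transcription. Red points are optimal summits, grey points weaker entries, the dotted line is the lowest signal of the optimal list (191), blue bars are gene spans and triangles start sites. The summits of dac, tsh and dan sit upstream of the start site, those of hth are spread over the gene, and so has a single tall summit 10.2 kb into the gene.

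Neither Pax6 gene had an optimal summit. Both lie on chromosome 4, where 16 of 80 protein-coding genes (20%) were bound and the optimal list had 21 summits in all. At ey, which runs from 697689 to 721173 on the plus strand, the pooled list held a single entry, 875 bp upstream of the first start site, with a signal value of 172 and rank 10506. That was just below the lowest optimal signal of 191. The replicate lists placed an entry at nearly the same position, 876, 859 and 867 bp upstream, at ranks 7829, 15349 and 12157. Replicates 1 and 2 also listed an entry at the start site itself, 37 and 34 bp downstream, at ranks 10371 and 12168. The nearest optimal summit lay 1641 bp outside the ey span (signal value 227), 7 bp from the start site of the neighbouring gene myo. That start site was also nearer than the ey start site to the entries 859 to 876 bp upstream of ey. Among them is the entry that put ey in the top list of replicate 1. At toy (989725 to 1007922, plus strand) the pooled list had a single entry 59 bp upstream of the start site, at rank 20573 and a signal value of 79.5. Its strongest entries in the replicates ranked 14415, 22346 and 13294, and in replicate 1 that entry was not at the start site but 12473 bp into the gene. The nearest optimal summit was 6723 bp beyond the toy span. For comparison, the Pax2 gene sv, on the same chromosome, counted as bound through a summit at 1113354 with a signal value of 909. It lay just past the sv end at 1113317, within the 1 kb flank, and 14829 bp downstream of the nearest sv start site. The 3' UTR in which it fell is therefore not that of sv.

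The homeobox gene so had the strongest summit of the set. It lay at 7429547 on 2R, in an intron of so 10197 bp downstream of the only annotated so start site, in an entry from 7429163 to 7429853. Its signal value was 2699, which placed it at rank 148 of the 9459 entries. The strongest overlapping entries ranked 225, 127 and 146 in replicates 1, 2 and 3, and the replicate summits were within 37 bp of it. A noncoding gene, lncRNA:CR44203, overlaps so there, and the summit lay 448 bp downstream of the start site of that noncoding gene. The distance rule therefore counts this summit as a promoter summit although it is far from the so promoter. A second, weaker so summit lay 370 bp upstream of the so start site (7418980, signal value 328, rank 5350), and its replicate ranks were 9009, 4174 and 6289. The stronger of the pair was thus close to the top of every list, whereas the weaker was in the lower part of the top list in replicate 1. Another 10 entries of the pooled list at so were too weak for the optimal list. The pooled list held 12 entries at so in all, and 80 of 527 protein-coding genes of comparable span had at least as many.

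Optix, the homeobox relative of so in the set (2R, 8031283 to 8042529, plus strand), had no optimal summit. Its strongest pooled entry was 374 bp upstream of the first start site, with a signal value of 139 and rank 12812. The best ranks in the replicates were 12586, 12190 and 13199, all beyond the top lists and close to each other, and all 3 of these entries were upstream of that start site, by 336, 246 and 336 bp. An optimal summit lay 2631 bp past the 3' end of Optix (signal value 285, rank 6282), and Optix was the gene with the nearest start site to it.

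The coactivator gene eya, which encodes the phosphatase partner of the Sine oculis protein, was also without a summit. Its span runs from 6527447 to 6546976 on the minus strand of 2L, with 3 annotated start sites. The strongest pooled entry, 172 bp upstream of the middle start site, had a signal value of 111 and rank 15546, and its window carried 2 overlapping matches to GAGAG. Best ranks at eya were 10907, 15227 and 17518 in the 3 replicates. The entry in replicate 1 was in an intron, 1755 bp downstream of the middle start site, while those of replicates 2 and 3 were upstream of it, at 6536282 and 6536212, so the replicates differed in which weak site ranked first. No optimal summit lay within 5 kb of eya, and the nearest was 10574 bp beyond its span, at the promoter of IFT52.

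At dac, which encodes a nuclear cofactor related to the Ski and Sno proteins, a pair of summits lay upstream of the start site and none in the gene itself. The gene runs from 16466512 to 16485998 on the minus strand of 2L. The summits were 544 and 745 bp upstream, with signal values of 537 and 486 and ranks of 2927 and 3323, in overlapping entries. Each replicate list had a summit within 31 bp of each of them, and the strongest overlapping entry ranked 2449, 3213 and 3056. These ranks lay close together, and dac held a similar place in every list. The window of the stronger summit held 1 GAGAG and had a GC content of 52.5%, and that of the weaker held none and had 33.7%. Within the transcribed part of dac all pooled entries were below the optimal list.

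tsh encodes a zinc finger protein, and its binding was at the promoter. The gene runs from 21828593 to 21837011 on the plus strand of 2L. Summits lay 304 and 97 bp upstream of the start site, with signal values of 487 and 229 and ranks of 3311 and 7870. The one closer to the start site was the weaker, although its window held 7 overlapping GAGAG matches, and it was the only one of the 20 windows with the longer GAGAGAG. Strongest overlapping entries ranked 4694, 3660 and 2344 in the replicates. In replicate 1 there was a single entry at tsh, with its summit 105 bp from the first and 102 bp from the second optimal summit, and so between them. The pooled list held no other entry at tsh. Its paralog tio had summits too, the strongest with a signal value of 328.

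hth encodes a homeodomain partner of Extradenticle, and it held 12 of the 20 summits, spread over 116 kb. Its span of 132 kb (3R, 10507561 to 10639568, minus strand) is by far the longest of the set. Its density was 0.895 summits per 10 kb of span and flanks, and that of the genome was 0.707 per 10 kb. Protein-coding genes of comparable span had a median of 4 summits, and 10 of 55 had at least 12. The gene has 2 annotated start sites 25.3 kb apart, with 6 summits between them and 6 downstream of the inner one, at 10614276. None of the 12 was strong: their median signal value was 296, and 9 of them were below the median of the whole optimal list, 365. The strongest (10579739, signal value 490, rank 3293) lay in an intron, 34537 bp downstream of the inner start site, and ranked 3729, 3872 and 2719 in the replicates. Next came a summit at 10550277 with a signal value of 443 and replicate ranks of 5145, 3546 and 3533. Both were thus within the top list of every replicate.

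Close to the inner start site of hth the binding was weak. The summit 276 bp upstream of it, at 10614552, had a signal value of 202, only a little above the lowest of the list, and ranked 15868, 6859 and 6980. Replicate 1 therefore did not have it in its top list. A pair of overlapping entries followed 2704 and 2903 bp upstream, with signal values of 420 and 312 and replicate ranks of 6231, 4486 and 3404. At the outer start site, 10639568, no summit lay within 5 kb on the side of the gene: the nearest were 5536 and 7530 bp downstream, with signal values of 299 and 276. Beyond that start site, 3700 and 4646 bp upstream, 2 more optimal summits fell outside the rule, with signal values of 195 and 220. Gaps between neighbouring hth summits ran from 199 bp to 34.8 kb, with a median of 4.47 kb. For 5 of the 12 the nearest start site of any gene was that of mir-4944, and for 2 that of asRNA:CR44018. The widest gap separated the summit near the inner start site from the strongest one.

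**Figure D2:**
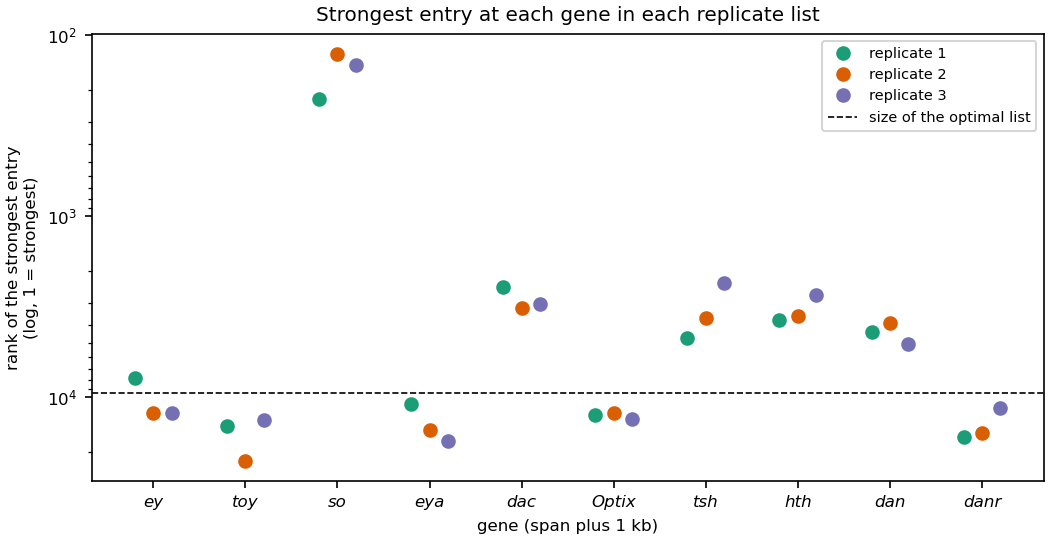
Rank of the strongest entry at each of the 10 genes in the 3 replicate lists (log axis, the strongest entries at the top, 1 point per replicate), with a dashed line at the size of the optimal list, 9459. The intronic summit puts so at ranks 127 to 225, dac, tsh, hth and dan lie between 2344 and 5067, and the 5 genes without an optimal summit lie between 7829 and 22346.

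dan and danr, the gene pair with Psq-type motifs, differed. At dan (25184383 to 25192806, plus strand of 3R), summits lay 251 and 52 bp upstream of the first start site, with signal values of 381 and 349 and ranks of 4496 and 4944. The strongest overlapping entry ranked 4338, 3876 and 5067 in the replicates, which is a narrow range. Both summits also lie inside lobo, so they cannot be assigned to dan by position alone. The window of the stronger held no GAGAG and that of the weaker held 1, at GC contents of 28.7% and 29.7%. The gene danr, 44.5 kb away, had no optimal summit. Its only pooled entry, 269 bp upstream of the start site, had a signal value of 132 and rank 13381, and the replicate entries there ranked 16558, 15694 and 11479. All 3 were thus at the danr promoter but below the top lists.

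Set against the list as a whole, the 20 summits had a median signal value of 322. The median of all optimal entries was 365, and 8 of the 20 were above it. Of the 12 hth summits, 9 were below it. The strongest of the 20, at so, was at rank 148 of the 9459 entries. By position, 7 of the 20 (35%) were promoter summits, within 500 bp of an annotated start site, against 43.4% of all optimal summits. Another 11 (55%) were intronic, against 39.6%, and all of these were in hth. The remaining 2 (10%), both at dac, were intergenic, against 13.9%. Because hth supplied 60% of the summits, these shares mostly describe hth. Without it 8 summits in 5 groups of overlapping entries remained, all of them upstream of a start site except the intronic summit of so.

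The GAGAG sequence, counted on both strands within 50 bp of the summit, was found at 6 of the 20 summits (30%) and at 17.0% of all optimal summits. The 6 windows belonged to 4 genes: dac, tsh, hth and dan. At the top-list summits of the 10 genes the share was 20.8%, 18.2% and 25% in the 3 replicates (mean 21.3 ± 3.44, SD), so the share in the optimal list was above that in every replicate. The share over all entries of the replicate top lists is not given, so no difference from the background is read from these values. GAGAGAG, which contains GAGAG, occurred at 1 of the 20 (5%) and at 4.31% of all. GCCAT, the core that the Polycomb recruiter Pho binds, occurred at 3 of the 20 (15%), all in hth, and at 14.0% of all. Neither motif was in the window of the strongest so summit or of the strongest hth summit, shown above for hth. A match of 5 bases is a description of the window, and its absence says only that these letters are not there. Median GC content was 37.1% at these summits and 37.6% over the list.

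Gene length bears on these counts. Of 55 protein-coding genes with a span within 20% of that of hth, 70.9% were bound, with a median of 4 summits, and 10 of them had at least 12. The genes with the most were Eip75B (37), CG1677 (25) and jing (24). In the longer pooled list hth stood higher: it held 82 entries against a median of 13, and 2 of the 55 genes held as many. The summit counts of the other bound genes were common at their length. Of genes comparable to so, 43.3% had at least 2 summits, and the same was true of 49.2% for dac, 31.7% for tsh and 31.7% for dan. Among the unbound genes, ey held 1 pooled entry where its comparable genes had a median of 6, toy 1 against 5 and eya 3 against 6, while Optix held 5 against 3 and danr 1 against 1.

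**Figure D3:**
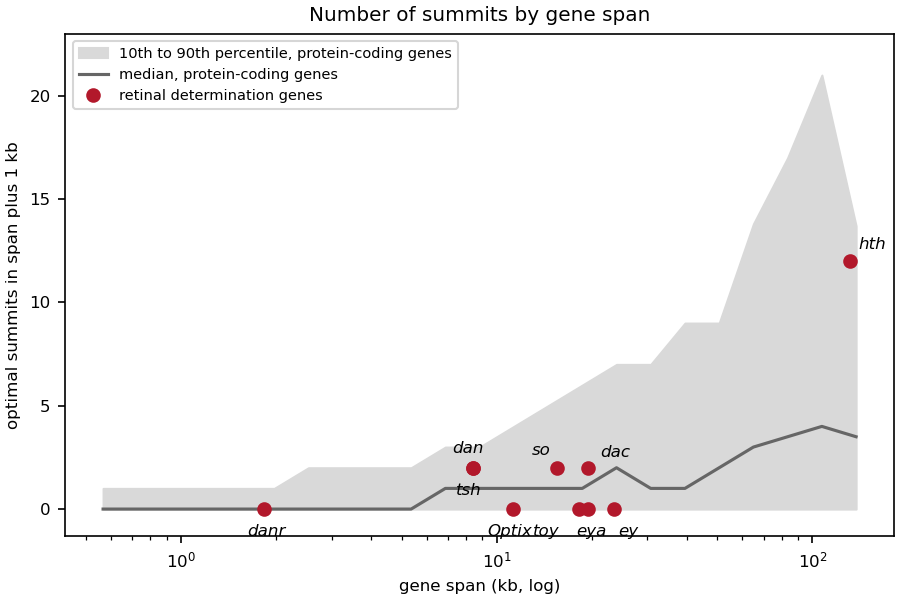
Number of optimal summits in the span plus 1 kb against gene span in kb (log axis) for the 10 genes (red points), with the median (line) and the range from the 10th to the 90th percentile (grey) of protein-coding genes in bins of span. The points for dan and tsh coincide at 2 summits, hth has 12, and the 5 unbound genes sit at 0.

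Most of these summits were in the top list of every replicate, as were most optimal entries. Of the 20, 16 overlapped an entry of all 3 top lists, compared with 80.7% of all optimal entries, and the other 4 (10532563, 10533420, 10614552 and 10621651) were hth summits present in 2 of the 3, with signal values of 317, 239, 202 and 212. For each summit, the distance to the nearest summit of each full replicate list was also taken, so entries below the top lists counted. The largest of the 3 distances had a median of 36.5 bp and a maximum of 331 bp. For 11 of the 20 summits it was 50 bp or less. The same distances over all optimal summits are not given. The median rank of the overlapping entries was 5935, 4264 and 5067 in replicates 1, 2 and 3. Replicate 1 thus placed them lowest, and it also had the fewest entries passing a q-value of 0.01, namely 9925 against 16596 and 14879. Whether depth differed in step was not tested, since the lists carry no depth.

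Genes related to the network by family or by function were bound to differing degrees. Of 57 such genes that were matched, in 6 lists, 37 (64.9%) were bound, and the replicate top lists gave 60.2% ± 2.68 (SD, n = 3). Of all protein-coding genes, 37.4% were bound in the optimal list, and 39.6%, 35.2% and 36.8% in the replicate top lists. No share among genes of similar length is given for these lists. Among relatives of the Pax and sine oculis families 6 of 9 were bound, with the strongest summits at Poxm (signal value 1058) and sv (909), and not at prd, gsb-n or Six4. Of 5 partners and paralogs, 4 were bound, led by chn (2800), a zinc finger gene, and by the corepressor gene gro (1210). The exception was exd, whose product pairs with Homothorax. Signalling and patterning genes of the eye disc, among them the transcription factor genes ara, caup, mirr and pnr, were bound in 10 of 12 cases, with 14 summits at N (the strongest 2873) and 7 at fng (965), which modifies Notch. The exceptions there were upd1 and ara.

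For genes that act after determination the counts were as follows. In the photoreceptor specification list 7 of 14 were bound, including the neuronal gene elav (signal value 1481) and the homeobox gene pros (656). For ommatidial function outside determination it was 3 of 10, namely norpA (2813), w (401) and Rh5 (216), the first encoding the phospholipase C of phototransduction. The w and Rh5 summits lay past the 3' ends of these genes, within the 1 kb flank, 6235 and 2073 bp downstream of their start sites. That of w was at the promoter of another gene, and that of Rh5 was intergenic. All 7 antennal and head regulators were bound, with 14 summits at Antp (the strongest 944) and 5 at Lim1 (455). The lists differed in gene span too: the median was 29.3 kb for the antennal and head regulators, 16.2 kb for the signalling and patterning genes, 8.36 kb for the Pax and sine oculis relatives, 8.18 kb for the partners and paralogs, 7.70 kb for the photoreceptor list and 2.50 kb for the ommatidial list. For the retinal determination genes it was 16.9 kb, and the order of the spans was not that of the shares bound. The part of span in these differences was not tested. At 50% in the optimal list, and 53.3% ± 5.77 (SD, n = 3) in the replicates, the retinal determination genes stood beside 37.4% of all protein-coding genes and beside the 57.0% to 70.9% (31.8% for danr) of genes of similar length. In a list of 10 each gene is 10% of the share, so no difference is read from these values.

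**Figure D4:**
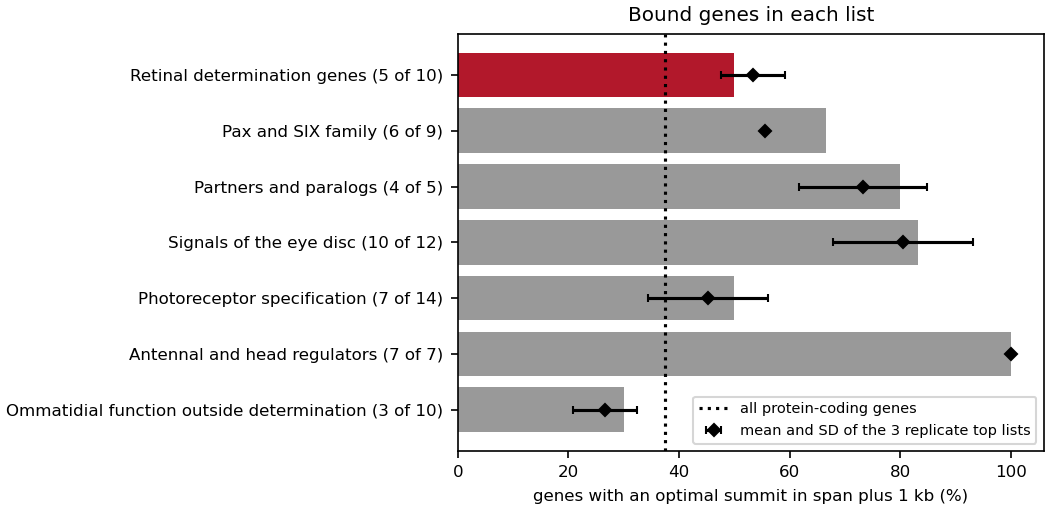
Percentage of genes with a summit in the span plus 1 kb for the retinal determination genes and the 6 related lists, in the optimal list (bars, from 0) and as the mean and SD over the top lists of the 3 replicates (diamonds), with the share of all protein-coding genes (37.4%) as a dotted line. The antennal and head regulators are at 100% and the ommatidial function list at 30% in the optimal list.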

How the data were processed

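The 3 biological replicates of 1 group were assayed by anti-GFP chromatin immunoprecipitation and sequencing, per the labels' protocols. The authors deposited dm6 peak lists: 1 per replicate and 1 from pooled replicates with 30000 entries each, and an optimal list of 9459 entries reproducible by the irreproducible discovery rate (IDR). The signal values and the −log10 q-values are the deposited ones. Not given in the sources used here were the scale of the signal, the peak caller, the aligner and the IDR threshold. Control libraries were not analysed here. Signals were compared only within a list and replicates by rank. Since the lists hold no counts, depth is unknown and no interval could be given; with 1 group no test was run.

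Gene models were those of Ensembl release 115 (FlyBase 6.54) and windows came from the RefSeq release 6 genome. A summit was the entry's start plus its summit offset, written 1-based. A top list is the strongest 9459 entries of a replicate, and overlap means at least 1 bp. Promoter means within 500 bp of any start site. Tables were made with Python 3.11.15, numpy 2.4.6 and pandas 2.3.3, and the assignment was checked on planted summits. The genes and lists were chosen with earlier results of these data known. In the related lists the 2 genes with the strongest summit were named, and each gene of a minority of at most 5. Another listed gene was not analysed here. Alternatives were other flanks, thresholds, windows and overlaps, and leaving out each replicate.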

Additional observations from a re-analysis of the deposited data

How the results depend on the processing

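Leaving out a replicate here means keeping the optimal entries found in the top lists of the other 2; the optimal list itself still rests on all 3, so these counts could only fall. The number of bound genes was 5 without each replicate in turn, 5 among the stronger 50% of optimal entries, and 7 with 5 kb added. It was 2 with the span alone. For the stronger 50%, the added 5 kb and the span alone, the shares of all protein-coding genes were 23.3%, 58.2% and 17%. For the counts without a replicate, of genes or of summits, no share over all genes or all optimal entries is given. The number of summits was 18, 17 and 17 without replicates 1, 2 and 3, 16 with 1 entry per group of overlapping entries and 24 with 5 kb added, but 13 with the span alone and 8 among the stronger 50%. Settings chosen after seeing the data gave 9 bound genes and 44 summits with 20 kb added, 8 genes and 39 summits from pooled entries passing a q-value of 0.01, and 8 summits without hth. Of all protein-coding genes, 83.5% had a summit with 20 kb added and 47% had such a pooled entry. Promoter summits numbered 2 at 250 bp, 9 at 1 kb and 6 by the genes' own start sites. With top lists of 50% of the size, 6 summits were in all 3. With a reciprocal overlap of 50% it was 11, and with summits at most 100 bp apart 13. For these promoter and overlap settings no share of all optimal summits is given, so the changes are not read as particular to these genes. Of the 57 related genes, 23 were bound with the span alone (17% of all protein-coding genes) and 21 among the stronger 50% (23.3%). Without replicates 1, 2 and 3 it was 33, 29 and 29, for which no share of all genes is given. The GAGAG share was 15% within 25 bp (8.85% of all optimal summits), 50% within 100 bp (31.6%) and 25% with 1 entry per group of overlapping entries (15.9%). A wider window holds more bases, and a wider flank more sequence; causes of the other changes were not tested. Depth being unknown, a gene without a summit is not shown to be free of Pipsqueak.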

Other observations

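Within 20 kb of the genes lay a further set of optimal summits that the 1 kb rule left out. Upstream of dac, 5 summits lay in introns of its neighbour Tpr2, at 6775 to 17144 bp from the dac span, the strongest with a signal value of 853. Upstream of dan, 3 lay in an intron of lobo, and the one 5665 bp away had a signal value of 756, above the 381 and 349 of the dan promoter summits. Near Optix a summit with a signal value of 2109 (rank 263) lay 18488 bp past its 3' end, in an intron of CG12769. At eya the strongest within 20 kb had a signal value of 1326 and lay at the promoter of Trmt6, 15210 bp away. No optimal summit lay within 20 kb of danr. These genes were named after their values were seen, and which gene a summit acts on was not tested.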
